A study of Mus musculus with 44 samples.

Results

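The secreted and surface products of the gastric mucosa were followed as 10 genes chosen by name, out of 19733 gene symbols in the count table. The surface group holds Muc1, Muc5ac, Tff1, Gkn1 and Gkn2, and the gland group holds Muc6, Tff2, Gkn3, Pgc and Aqp5. The rule is the list of names and uses no measured value, although earlier results of these data were known when it was set. RNA was sequenced from 20 mouse organoid libraries of the strain C57BL/6, in 2 experiments that were analysed apart. In the first, isogenic gastric organoid lines carried lentiviral CDX2 (3 libraries), HNF4A (3) or GFP (3), and organoids of small intestine (2) stood beside them. In the second, organoids of stomach antrum were homozygous (3), heterozygous (3) or wild type (3) for a germline CRISPR-Cas9 deletion of an enhancer 3' of Cdx2. All 9 antrum libraries overexpressed HNF4A, so the wild-type group was wild type only at the enhancer. CDX2 and HNF4A regulate transcription in gut epithelium, CDX2 chiefly in intestine, and the comparisons address how far gastric expression gives way when they are present. Neither the promoter and species of the transgenes nor the number and age of the mice behind the organoids is stated in the labels, and p-values therefore measure the spread between libraries, which may in part be technical.

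The gastric epithelium folds into pits and glands. Pit cells at the surface release the gel-forming mucin Muc5ac together with the trefoil peptide Tff1 and the gastrokines Gkn1 and Gkn2, and they carry the membrane mucin Muc1 on their apical face. Mucous cells deeper in the gland release the mucin Muc6 with the trefoil peptide Tff2, chief cells and antral gland cells make pepsinogen C from Pgc, and in mouse the gastrokine gene Gkn3 and the water channel gene Aqp5 are also expressed by gland cells. In intestinal metaplasia this output is replaced in part by goblet cell products such as Muc2 and Tff3.

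Several of the genes sit in families along the chromosome (GRCm38.p6, the RefSeq release of mm10). Muc6 (chromosome 7, 141633459 to 141655393) and Muc5ac (141788958 to 141819227) flank the goblet mucin gene Muc2, with gaps of 34.9 kb on the Muc6 side and 34.3 kb on the Muc5ac side. Tff2 (chromosome 17, 31141062 to 31144282) and Tff1 (31161395 to 31165060) lie 17.1 kb apart and next to Tff3. Gkn1, Gkn2 and Gkn3 lie between 87345653 and 87388935 on chromosome 6, where Gkn2 and Gkn3 are 3.83 kb apart. Muc1 lies on chromosome 3 (89229056 to 89233381), Pgc on chromosome 17 (47726842 to 47734478) and Aqp5 on chromosome 15 (99591028 to 99594829).

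Promoter sequence was in the RefSeq table for 7 of the 10 genes. The 100 bases upstream of the annotated start are shown for the genes whose values carry most of what follows, with the letters TATAAA on the gene's strand and AGATAA on either strand in capitals. The windows of Muc6 and Aqp5 hold neither.
Muc1 (chr3:89228956-89229055, plus strand): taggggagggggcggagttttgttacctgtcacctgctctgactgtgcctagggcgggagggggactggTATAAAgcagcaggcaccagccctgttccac
Pgc (chr17:47726742-47726841, plus strand): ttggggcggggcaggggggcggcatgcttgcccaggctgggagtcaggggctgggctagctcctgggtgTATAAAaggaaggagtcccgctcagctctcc
Gkn2 (chr6:87373265-87373364, plus strand): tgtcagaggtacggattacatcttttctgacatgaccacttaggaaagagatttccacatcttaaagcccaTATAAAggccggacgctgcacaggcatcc
Muc6 (chr7:141655394-141655493, minus strand): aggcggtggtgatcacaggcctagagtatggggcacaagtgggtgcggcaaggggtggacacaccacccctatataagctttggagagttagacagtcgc
Aqp5 (chr15:99590928-99591027, plus strand): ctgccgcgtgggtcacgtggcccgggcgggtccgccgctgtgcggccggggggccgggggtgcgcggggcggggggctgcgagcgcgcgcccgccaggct

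The TATA box letters TATAAA begin 31 bases before the start of Muc1 and of Pgc and 29 bases before that of Gkn2, and 7.59% of the 32851 promoters in the table hold them on the gene's strand in the 250 bases before the start. In that same window the letters TTTAT, the core bound by CDX proteins, occur on either strand in Muc1, Muc6, Gkn2 and Pgc and in 37.3% of all promoters. In Muc1 and Pgc this match is the ATAAA inside TATAAA, and Gkn2 has one there and one that overlaps its AGATAA. The GATA letters AGATAA occur in Muc6, Gkn1 and Gkn2 and in 9.99% of all promoters. The letters CAAAG, part of an HNF4 site, occur in Muc6, Gkn1, Gkn3 and Pgc and in 48.6%. These are matches of letters in a window, and no binding data were used here.

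Libraries held 6180498 to 11465309 counts, and 3 counts corresponded to 0.256 to 0.473 CPM, the count scaled to library size with TMM factors within each experiment. The epithelial genes Epcam, Cdh1, Krt8, Krt18 and Krt19 were detected in all 20 libraries. Cdx2 stood at 200, 288 and 62.0 CPM in CDX2 lines 1, 2 and 3, so it was lowest in line 3. It lay between 22.6 and 50.7 CPM in HNF4A lines and 272 and 282 in small intestine, against 3.19 to 7.44 in GFP lines. Hnf4a lay between 289 and 502 CPM in HNF4A lines, against 95.7 to 158 in GFP lines. In the antrum organoids Cdx2 lay between 0.20 and 1.36 CPM in homozygous, 5.55 and 18.4 in heterozygous and 16.7 and 58.5 in wild-type libraries. The defining parietal genes Atp4a and Atp4b stayed at or below 4.38 and 0.20 CPM in every library. In these bulk samples fewer cells of a type and less RNA per cell cannot be told apart.

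Taken as a group, the 10 genes supplied 0.0528%, 0.217% and 0.372% of all counts in CDX2 lines 1, 2 and 3 and 0.288%, 0.563% and 1.18% in HNF4A lines 1, 2 and 3. Their share was 0.000145% and 0.00625% in small intestine, against 0.579%, 1.01% and 1.64% in GFP lines 1, 2 and 3. Each CDX2 line had a smaller share than the GFP and HNF4A lines of the same number, and in each of the 3 gastric groups line 1 had the smallest share and line 3 the largest. Muc1 supplied most surface counts in each gastric line and antrum library except HNF4A line 1, where it gave 3372 of 7485. In GFP line 1 it gave 5845 of 6388. Sums over the surface group therefore mainly follow Muc1 in those libraries. Line numbers were shared between groups, and libraries with the same number deviated together from their group means across all genes. Comparisons between gastric lines were therefore also fitted with line number as a block. That fit held all 11 libraries, so small intestine replicates 1 and 2 shared blocks with gastric lines 1 and 2, although they did not deviate together.

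**Figure D1:**
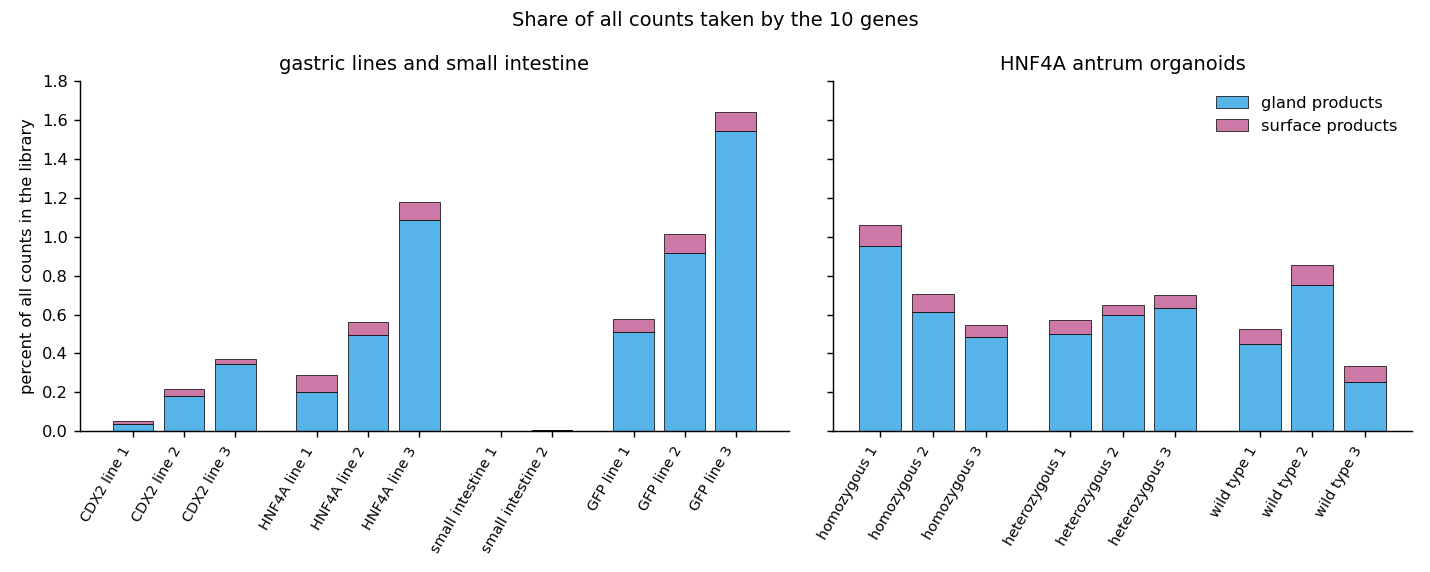
Percent of each library's counts that came from the 5 gland and the 5 surface genes, stacked, for the 11 libraries of the lines (left) and the 9 antrum libraries (right). The share runs from 0.0528% to 0.372% in CDX2 lines and from 0.579% to 1.64% in GFP lines, and is at most 0.00625% in small intestine. The surface part is mostly Muc1 in each gastric line and antrum library except HNF4A line 1.

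Gland products had lower mean levels in CDX2 lines than in GFP lines, and the fitted difference was largest for the gland mucin gene Muc6. Muc6 stood at 10.3, 90.4 and 886 CPM in CDX2 lines 1, 2 and 3, against 2004, 3772 and 6923 CPM in GFP lines 1, 2 and 3. The groups did not overlap, and the CDX2 line was lower than the GFP line of the same number by 195-fold, 41.7-fold and 7.81-fold in lines 1, 2 and 3. The log2 fold change was -3.69 ± 1.43 (SE), which did not pass edgeR's quasi-likelihood test with Benjamini-Hochberg adjustment (adjusted p = 0.352). With line number as a block Muc6 fell by 5.29 ± 0.88 on the log2 scale (adjusted p = 0.0209, edgeR). Without CDX2 line 3 the unblocked value was -6.40 (adjusted p = 0.0942, edgeR).

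The gastrokine Gkn3 stood at 186, 1022 and 1582 CPM in CDX2 lines 1, 2 and 3, against 1478, 3553 and 6622 CPM in GFP lines 1, 2 and 3. CDX2 line 3 lay above GFP line 1, but within each line number the CDX2 library was lower, by 3.48-fold to 7.95-fold. Its log2 fold change was -2.06 ± 1.36 (adjusted p = 0.656, edgeR). Aqp5 stood at 192, 663 and 765 CPM in CDX2 lines, against 1645, 1698 and 889 CPM in GFP lines. These groups did not overlap, and the log2 fold change was -1.38 ± 0.60 (adjusted p = 0.413, edgeR).

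The pepsinogen gene Pgc stood at 6.64, 21.6 and 130 CPM in CDX2 lines 1, 2 and 3, against 16.8, 136 and 249 CPM in GFP lines 1, 2 and 3. Again the CDX2 library was the lower in each line number, by 1.92-fold to 6.30-fold, while the groups overlapped. The fitted value was -1.36 ± 1.13, and it was -0.55 without GFP line 3 and -3.25 without CDX2 line 3. The trefoil gene Tff2 did not follow the other gland genes. It was at 7.74 to 25.6 CPM in CDX2 lines and 3.92 to 91.6 CPM in GFP lines, and its log2 fold change of -1.07 ± 0.96 was at 0.92 without GFP line 2.

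Among surface products the membrane mucin gene Muc1 separated CDX2 from GFP lines by a similar ratio in each line number. It stood at 144, 352 and 217 CPM in CDX2 lines 1, 2 and 3, against 624, 889 and 924 CPM in GFP lines 1, 2 and 3. All 3 CDX2 libraries lay below all 3 GFP libraries, and within line numbers the CDX2 library was lower by 2.52-fold to 4.33-fold. The log2 fold change of -1.77 ± 0.40 had an adjusted p of 0.0949 in edgeR. With line number as a block Muc1 fell by 1.83 ± 0.24 on the log2 scale (adjusted p = 0.00886, edgeR), and DESeq2 gave an adjusted p of 0.000536 without the block.

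The remaining surface genes were near the detection limit in several libraries, and their spread was wide. The pit mucin gene Muc5ac stood at 0.40, 0.48 and 5.21 CPM in CDX2 lines 1, 2 and 3, against 23.6, 11.7 and 1.59 CPM in GFP lines 1, 2 and 3, so CDX2 line 3 was above GFP line 3. The pit trefoil gene Tff1 showed the same exchange in line 3, with 0.40, 13.0 and 15 CPM in CDX2 lines and 30.3, 87.2 and 0.61 CPM in GFP lines. The gastrokine gene Gkn1 averaged 1.07 ± 0.70 CPM in CDX2 lines and 3.34 ± 2.69 CPM in GFP lines (SD, n = 3 each) and was the lower in CDX2 in all 3 line numbers. The log2 fold changes were -2.65 ± 1.59 for Muc5ac, -2.08 ± 1.75 for Tff1 and -1.61 ± 1.44 for Gkn1, with adjusted p from 0.612 to 0.767 in edgeR. Gkn2 had 2 counts in all CDX2 libraries and 26 in all GFP libraries, which is 11.9-fold more per sequenced count in GFP lines (95% counting interval 2.97 to 103). Its counts were 0, 0 and 2 in CDX2 lines 1, 2 and 3 and 12, 14 and 0 in GFP lines 1, 2 and 3. The groups thus overlapped, line 3 stood the other way, and the adjusted p was 0.673 in edgeR.

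**Figure D2:**
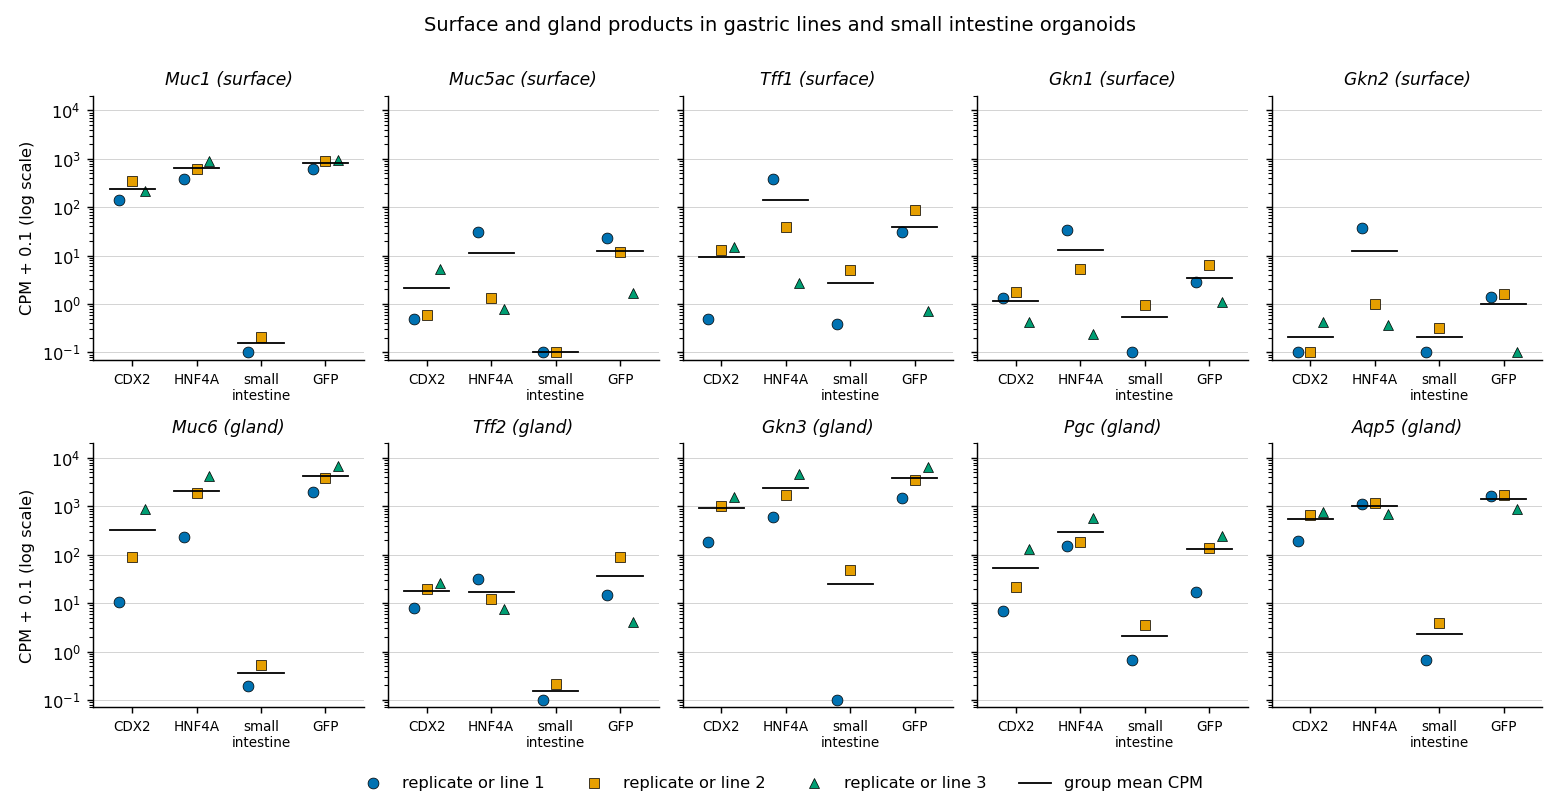
CPM plus 0.1 on a log scale for each of the 10 genes (surface genes above, gland genes below) in CDX2 lines, HNF4A lines, small intestine and GFP lines; symbols mark the line or replicate number and horizontal bars the group mean. For Muc1, Muc6 and Aqp5 all CDX2 points lie below all GFP points, and in small intestine Gkn3 is at 0 in one replicate and 49.2 CPM in the other.

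Counted over the group, none of the 10 genes passed edgeR's test in CDX2 against GFP lines, where 0.409% of the 12720 tested genes passed. All 10 had passed the filter on low counts and all 10 had a negative log2 fold change, with a median of -1.92 beside 0.0029 over all tested genes. An unadjusted p under 0.05 was reached by 3, Muc1, Muc6 and Aqp5, and by 1430 of all tested genes. These same 3 genes had groups that did not overlap, with the CDX2 lines lower, as did 7.76% of tested genes. With the block 2 genes fell, Muc1 and Muc6, where 1.96% of tested genes were called lower, and DESeq2 called Muc1 lower, where it called 1.14% lower. The CDX2 library was the lower in every line number for 6 of the 10, Muc1, Gkn1, Muc6, Gkn3, Pgc and Aqp5, where 21.7% of tested genes were.

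Marker sums of some other cell types differed between the same libraries, while those of Paneth, immune and endothelial genes overlapped. Paneth genes summed to 83.8 to 227 CPM in CDX2 lines and 43.8 to 210 in GFP lines. The 6 goblet genes, of which 5 to 6 were detected in CDX2 lines and 4 to 5 in GFP lines, summed to 117 to 371 CPM in CDX2 lines and 13.1 to 38.3 in GFP lines. The 6 enteroendocrine genes summed to 47.6 to 149 CPM in CDX2 lines and 4.25 to 7.15 in GFP lines, and the 9 enterocyte genes to 770 to 962 CPM in CDX2 lines and 457 to 644 in GFP lines. Gif, which encodes gastric intrinsic factor and is made by chief cells in mouse, stood at 0.30, 22.4 and 333 CPM in CDX2 lines 1, 2 and 3, against 81.2, 389 and 939 CPM in GFP lines 1, 2 and 3. It was thus low in line 1 and high in line 3, as Muc6, Gkn3 and Pgc were. The 5 epithelial markers summed to 7829 to 14982 CPM in CDX2 lines and 6665 to 6808 CPM in GFP lines. The part of these shifts in the lower gastric products was not tested.

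In HNF4A lines, as in the other gastric groups, Muc6, Gkn3 and Pgc were lowest in line 1 and highest in line 3. Muc6 stood at 228, 1843 and 4272 CPM in HNF4A lines 1, 2 and 3, against 2004, 3772 and 6923 CPM in GFP lines 1, 2 and 3. The HNF4A library was the lower in each line number, by 8.80-fold in line 1 and 1.62-fold in line 3, but the groups overlapped. This gave a log2 fold change of -1.0 ± 1.30 (adjusted p = 1, edgeR). Gkn3 ranged from 589 to 4704 CPM in HNF4A lines, against 1478 to 6622 in GFP lines (-0.73 ± 1.31), and Aqp5 from 680 to 1180 CPM in HNF4A lines, against 889 to 1698 in GFP lines (-0.50 ± 0.59).

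Pgc was the gland gene that stood on the other side. It was at 150, 187 and 563 CPM in HNF4A lines 1, 2 and 3, against 16.8, 136 and 249 CPM in GFP lines 1, 2 and 3, higher in the HNF4A library of each number by 1.38-fold to 8.97-fold. The groups overlapped, and the log2 fold change of 1.16 ± 1.11 did not pass (adjusted p = 1, edgeR). Tff2 was at 7.49 to 30.8 CPM in HNF4A lines and 3.92 to 91.6 CPM in GFP lines. Its log2 fold change of -1.13 ± 0.96 turned to 0.85 without GFP line 2.

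Among HNF4A lines the secreted surface products were high in line 1. In that library Tff1 stood at 377 CPM, Gkn1 at 33.1, Gkn2 at 36.5 and Muc5ac at 31.1. In HNF4A lines 2 and 3 Tff1 was at 38.7 and 2.59 CPM, Gkn1 at 5.21 and 0.14, Gkn2 at 0.91 and 0.27, and Muc5ac at 1.25 and 0.68. The GFP lines held at most 87.2 CPM of Tff1, 6.27 of Gkn1, 1.49 of Gkn2 and 23.6 of Muc5ac, so HNF4A line 1 exceeded every GFP library for all 4 genes.

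The log2 fold changes of HNF4A over GFP lines were 3.73 ± 1.70 for Gkn2, 1.93 ± 1.37 for Gkn1, 1.82 ± 1.68 for Tff1 and -0.16 ± 1.45 for Muc5ac, with adjusted p of 0.875 to 1 in edgeR. Without HNF4A line 1 they were -0.63, -0.31, -0.93 and -3.64, so the positive values rested on that library. The membrane mucin gene Muc1 was not high there, with 392, 628 and 901 CPM in HNF4A lines and 624, 889 and 924 CPM in GFP lines (-0.34 ± 0.39). Among the gastric lines HNF4A line 1 had the largest share of surface genes among counts of the 10 genes, 29.1%. HNF4A lines 2 and 3 had 12% and 8.13%, and the GFP lines 5.94% to 11.7%. CDX2 lines 1, 2 and 3 had 26.6%, 16.8% and 6.55%. In CDX2 line 1 Muc1 gave 1431 of the 1451 surface counts, while in HNF4A line 1 it gave 3372 of 7485. In summed CPM the surface genes of HNF4A line 1 were at 870, within the 682 to 996 of GFP lines. Its gland genes were at 2121 CPM, against 5159 to 14686 in GFP lines.

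None of the 10 genes passed in HNF4A against GFP lines, where edgeR called 0.142% of tested genes; none reached an unadjusted p under 0.05, and neither the block nor DESeq2 called any. No gene of the 10 had groups that did not overlap, as 11.6% of tested genes had. The HNF4A library was the lower in every line number for 4 of the 10, Muc1, Muc6, Gkn3 and Aqp5, where 24.5% of tested genes were. Their log2 fold changes were negative for 6 and positive for 4, with a median of -0.25.

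**Figure D3:**
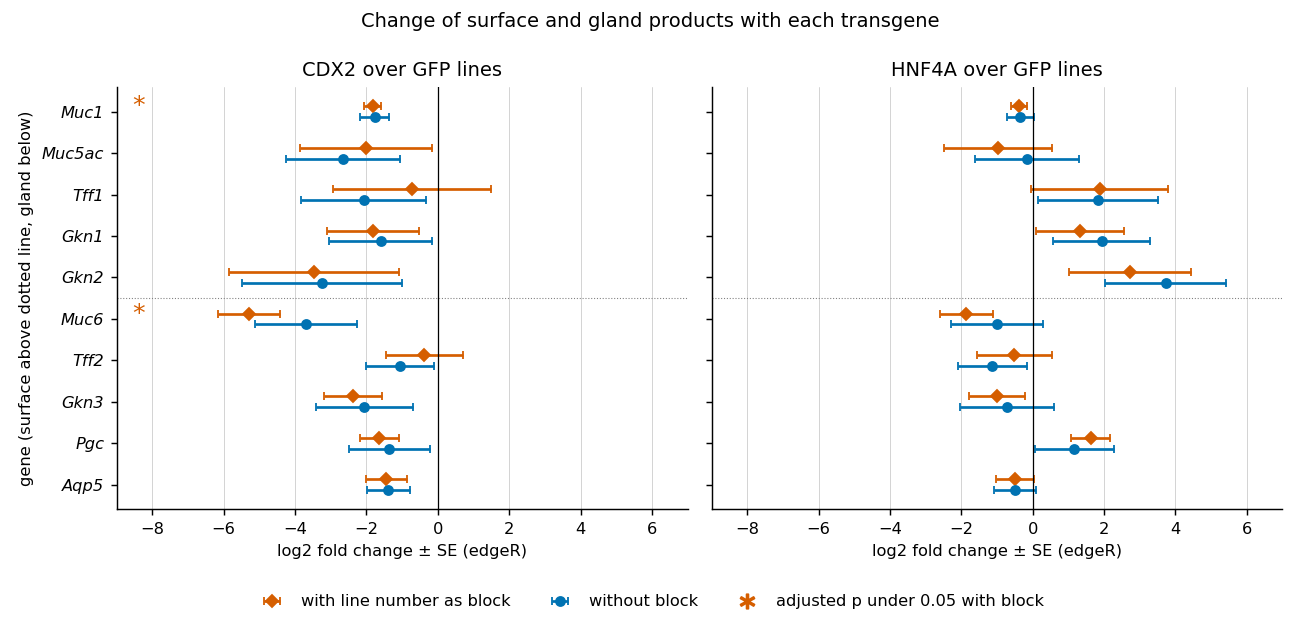
Log2 fold change with its standard error in edgeR for CDX2 over GFP lines (left) and HNF4A over GFP lines (right), with line number as a block (diamonds) and without (circles); asterisks mark an adjusted p under 0.05 with the block. Only Muc1 and Muc6 in CDX2 lines carry an asterisk, the Gkn2 value on the left rests on 2 counts in CDX2 lines, and the positive values of Tff1, Gkn1 and Gkn2 on the right rest on HNF4A line 1.

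Set directly against HNF4A lines, CDX2 lines had the lower mean for 9 of the 10 genes. Muc1 averaged 238 ± 106 CPM in CDX2 lines and 640 ± 255 CPM in HNF4A lines (SD, n = 3 each). The groups did not overlap, and the log2 fold change was -1.43 ± 0.39 (adjusted p = 0.438 in edgeR and 0.0308 in DESeq2). Pgc averaged 52.6 ± 67.1 CPM in CDX2 lines and 300.1 ± 228 CPM in HNF4A lines (SD, n = 3 each), also without overlap (-2.52 ± 1.17). Muc6 averaged 329 ± 484 CPM in CDX2 lines and 2114 ± 2036 CPM in HNF4A lines (SD, n = 3 each), with overlap (-2.69 ± 1.37).

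EdgeR called none of the 10 in CDX2 against HNF4A lines, where it called 0.0236% of tested genes. An unadjusted p under 0.05 was reached by Muc1, Gkn1 and Gkn2 and by 659 of all tested genes. DESeq2 called Muc1 lower, where it called 0.605% of genes lower, and the block called none of the 10. The groups of Muc1 and Pgc did not overlap, with CDX2 lines lower, as for 4.21% of tested genes. The Gkn1 value (-3.54 ± 1.49) was -1.30 without HNF4A line 1. Gkn2 held 2 counts in CDX2 lines against 324 in HNF4A lines, of which lines 1, 2 and 3 held 314, 8 and 2. The ratio of HNF4A over CDX2 lines was 161 (95% counting interval 44.1 to 1332). That interval leaves out the spread between libraries, and the adjusted p was 0.564 in edgeR.

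In order of group means, GFP lines stood highest, then HNF4A lines, CDX2 lines and small intestine for Muc1, Muc6, Gkn3 and Aqp5. Muc5ac had the same order, and Tff2 had it with CDX2 lines above HNF4A lines. For Pgc, Tff1, Gkn1 and Gkn2 HNF4A lines had the highest mean. Without the block no pair of gastric groups passed edgeR's test for any of the 10 genes, and with it Muc1 and Muc6 passed in CDX2 against GFP lines; the step from CDX2 lines down to small intestine passed for Muc1, Muc6, Aqp5 and Tff2.

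In small intestine organoids the mean of each of the 10 gastric products was below that of GFP lines, and Muc1, Tff2, Muc5ac and Muc6 had at most 4 counts in a library. Muc1 had 0 and 1 counts in the small intestine libraries, against 21748 counts over the GFP lines, a GFP over small intestine ratio of 16022 (95% counting interval 2875 to 632880). Tff2 had 0 and 1 counts, against 1031 in GFP lines (ratio 760, interval 136 to 30030). Muc5ac had 0 counts in both libraries, which allows up to 0.279 and 0.329 CPM, and was at least 84.5-fold lower than in GFP lines on 3 counts over the group. Muc6 had 1 and 4 counts, a mean of 0.266 CPM against 4233 CPM in GFP lines (log2 fold change -13.94 ± 2.79).

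The small intestine libraries did not match each other. Replicate 2 held 448 counts of Gkn3, 46 of Tff1, 35 of Aqp5, 31 of Pgc and 8 of Gkn1, while replicate 1 held 0, 3, 6, 6 and 0. In CPM, Gkn3 was at 0 and 49.2 in small intestine replicates 1 and 2, against at least 1478 in GFP lines, and its log2 fold change was -7.31 ± 2.08. Without replicate 2 that value was -18.05, where replicate 1 had 0 counts. Aqp5 was at 0.56 and 3.84 CPM, against at least 889 in GFP lines (-9.35 ± 1.04), and Pgc at 0.56 and 3.40 CPM, against at least 16.8 (-6.11 ± 1.73).

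EdgeR called 6 of the 10 lower in small intestine than in GFP lines, where 12.9% of tested genes were called lower: Muc1 (adjusted p = 6.2e-05), Aqp5 (0.000781), Muc6 (0.00748), Tff2 (0.0102), Pgc (0.0275) and Gkn3 (0.0284). Groups did not overlap for 8 of the 10, as for 28.9% of tested genes in that direction. Muc5ac had an adjusted p of 0.0571, and Tff1, Gkn1 and Gkn2 did not pass. Only Muc1 and Aqp5 stayed called without small intestine replicate 1, which leaves a lone library assumed to vary like the other groups. Without GFP line 2 the adjusted p was 0.0534 for Gkn3 and 0.0531 for Pgc in edgeR, without GFP line 3 it was 0.0528 for Gkn3 and 0.0576 for Pgc, and without small intestine replicate 2 it was 0.0709 for Pgc.

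Against CDX2 lines small intestine was lower for 4 of the 10 by edgeR, Muc1, Aqp5, Tff2 and Muc6, where 5.67% of tested genes were called lower and 11.3% in either direction. Groups did not overlap for 7, as for 23.6% of tested genes in that direction. The log2 fold changes were -10.26 ± 2.53 for Muc6 and -7.96 ± 0.99 for Aqp5. For the genes with 1 count in small intestine, the CDX2 over small intestine ratios were 4625 for Muc1 (95% counting interval 830 to 182690; edgeR's adjusted p = 0.000286) and 324 for Tff2 (57.8 to 12826; edgeR's adjusted p = 0.0335). Muc6 lost its call without CDX2 line 3 (-7.55, adjusted p = 0.0623 in edgeR), small intestine replicate 1 (-9.50, 0.279) or small intestine replicate 2 (-11.58, 0.0962). Tff2 lost its call without any of these or CDX2 line 2, with adjusted p from 0.0521 to 0.277 in edgeR.

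Against HNF4A lines small intestine was lower for 5 of the 10 by edgeR, Muc1, Aqp5, Muc6, Tff2 and Pgc, where 6.64% of tested genes were called lower and 12.5% in either direction. Groups did not overlap for 8, as for 24.3% of tested genes in that direction. The log2 fold changes were -12.94 ± 2.72 for Muc6, -8.84 ± 1.02 for Aqp5 and -7.27 ± 1.81 for Pgc. HNF4A over small intestine ratios were 12439 for Muc1 (95% counting interval 2232 to 491360) and 342 for Tff2 (61.0 to 13537). Leaving out HNF4A line 2, small intestine replicate 1 or small intestine replicate 2 ended the calls of Muc6, Tff2 and Pgc, with adjusted p from 0.0519 to 0.258 in edgeR. Leaving out HNF4A line 3 ended those of Tff2 (0.0527) and Pgc (0.0667), and leaving out HNF4A line 1 that of Tff2 (0.0538). Muc1 and Aqp5 stayed called in each of these fits.

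In CDX2 against GFP lines the goblet genes Muc2 and Tff3 had fitted values opposite in sign to those of the gastric genes beside them. There Gkn1, Gkn2 and Gkn3 on chromosome 6 all had negative values. The signs did not divide so in every comparison. In HNF4A against GFP lines Tff3 was at 5.24, beside Tff2 at -1.13 and Tff1 at 1.82. In homozygous against wild-type libraries Tff3 was at -4.60, Tff2 at -1.86 and Tff1 at -3.09. In CDX2 lines Muc2 stood at 36.6, 13.9 and 13.6 CPM in lines 1, 2 and 3, against 0.64, 8.29 and 1.23 CPM in GFP lines (2.65 ± 1.06, adjusted p = 0.369, edgeR), while Muc6 and Muc5ac on either side of it had log2 fold changes of -3.69 and -2.65. The goblet trefoil gene Tff3 rose to 80.8, 46.7 and 16.1 CPM in CDX2 lines, against 0.11, 0.74 and 0.00 CPM in GFP lines (7.28 ± 1.18, adjusted p = 0.0346, edgeR), next to Tff2 at -1.07 and Tff1 at -2.08. The difference between neighbours was not tested. Ap2a2, a subunit gene of the clathrin adaptor whose end lies 448 bases from Muc6, was at -0.06 ± 0.17, and Trim46, 788 bases from Muc1, at -1.35 ± 0.35 (adjusted p = 0.152, edgeR).

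Other genes of the mucous pathway were read from lists. Of 10 tested pit cell genes outside the members, Ltf, which encodes the iron-binding protein lactoferrin, fell to 35.7, 68.1 and 39.1 CPM in CDX2 lines, against 1034, 400.1 and 335 CPM in GFP lines (-3.63 ± 0.47, adjusted p = 0.0147, edgeR), and no other was called. The list's median was -0.62. Of 11 tested gland, chief and parietal cell genes none was called. Lyz1, which encodes the lysozyme of Paneth cells, had the smallest p and a positive value (3.97 ± 1.45, adjusted p = 0.325, edgeR), while A4gnt, whose enzyme caps the sugars of the gland mucin, was at -3.30 ± 1.41 (adjusted p = 0.408), and the median was -0.73. Of 8 tested genes of other mucins, trefoils and mucus proteins 2 rose, Tff3 and the mucus protein gene Fcgbp (4.8 ± 0.76, adjusted p = 0.0327, edgeR), and the median was 3.72.

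The machinery that builds and releases mucin held no called gene in those lines. Of 23 tested glycosylation enzymes none was called in CDX2 against GFP lines (median 0.20); Fut2, which adds terminal fucose, was at -1.0 ± 0.21 (adjusted p = 0.0811) and the sulfotransferase gene Chst4 at 5.54 ± 1.37 (0.134). Of 18 tested genes of mucin folding and secretion none was called (median -0.65); the calcium sensor gene Syt7 was at 4.03 ± 0.80 (0.0706) and Xbp1, a regulator of secretory capacity, at -0.91 ± 0.20 (0.0928). None of 5 other aquaporins was called (median 0.58); Aqp1 was at 2.65 ± 0.83 (0.236), and Aqp3 averaged 0.107 CPM in CDX2 lines and 0.893 CPM in GFP lines. Among 18 regulators the only one called was Cdx2 itself. In HNF4A lines no gene of these 7 lists was called, with Ltf at -2.66 ± 0.45 (adjusted p = 0.0657, edgeR), Tff3 at 5.24 ± 1.16 (0.165), Lyz1 at 6.74 ± 1.52 (0.171) and Muc13 at 6.12 ± 1.56 (0.246).

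In small intestine against GFP lines, where edgeR called 14.2% of tested genes higher, the lists divided. Pit cell genes were lower for 4 of 10, among them Cldn18, a stomach tight junction gene (0.946 against 738 CPM), and Ltf (1.12 against 590 CPM). Mucin folding and secretion genes were lower for 8 of 18 and higher for 1, with Xbp1 at -1.82 ± 0.24 and the secretory regulator Spdef at -3.87 ± 0.80. Of the 11 gland, chief and parietal cell genes A4gnt was lower (-6.55 ± 2.09) and Lyz1 higher (6.51 ± 1.55). Glycosylation enzymes were lower for 4 and higher for 3 of 23, with Fut2 at -4.22 ± 0.29 (adjusted p = 6.2e-05) and Fut1 at 3.00 ± 0.75 (0.0176). Other mucin and trefoil genes were higher for 4 of 8, including Fcgbp, Tff3, the membrane mucin gene Muc13 and Zg16. Of the regulators, 8 of 18 were lower, with Sox2, a stomach transcription factor, at 0 counts against a mean of 82.9 CPM, and 4 were higher.

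Among genes outside the 10, the profiles nearest to that of Muc6 over the 11 libraries of the lines were those of Trf, which encodes transferrin, Cxcl17 and Cfi. Likeness was the root mean square difference of centred log2 CPM, which was 1.67 for Trf and 1.99 for both others, where the Muc6 profile itself had a root mean square of 4.89. Trf averaged 293 CPM in CDX2 lines, 1775 in HNF4A lines and 1.95 in small intestine, against 3622 in GFP lines. Among the 10 genes Muc1 (1.96) and Gkn3 (2.14) were nearest to Muc6 and Gkn2 (4.76) was the farthest. For Muc5ac, whose own root mean square was 2.40, the nearest among the 10 genes were Gkn2 (1.55) and Tff2 (1.70), while Muc1 was at 3.265. Over the 9 antrum libraries, where the Muc6 profile had a root mean square of 0.468, the nearest genes outside the 10 were Glipr2 (0.210), Ptpn13 (0.256) and Pilra (0.256), and for Muc5ac (0.969) they were Cd46 (0.344), Ovgp1 (0.449) and Prss41 (0.510). Group means there were 1.56 to 1.87 CPM for Muc5ac, 0.738 to 0.919 for Cd46, 3.18 to 4.65 for Ovgp1 and 0.478 to 1.21 for Prss41. Pilra was at 1.00 to 1.57 CPM. These profiles therefore rest on few counts.

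No gastric product passed the test in the antrum organoids, and errors were wide. Muc6 stood at 1010, 1270 and 1384 CPM in homozygous libraries, 1093, 1534 and 772 in heterozygous libraries, and 943, 858 and 493 in wild-type libraries. All 3 homozygous libraries lay above all 3 wild-type libraries, while heterozygous replicate 3 lay among the wild type. The difference on the log2 scale was 0.67 ± 0.30 for homozygous against wild type and 0.57 ± 0.30 for heterozygous against wild type (adjusted p = 0.999 and 0.622, edgeR). Without wild-type replicate 3, the lowest library, the homozygous value was 0.44.

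Muc1 stood at 1057, 883 and 570 CPM in homozygous libraries, 685, 517 and 653 in heterozygous libraries, and 749, 984 and 710 in wild-type libraries. All heterozygous libraries lay below all wild-type libraries, and the homozygous ones straddled them. On the log2 scale the difference was -0.40 ± 0.24 for heterozygous against wild type (adjusted p = 0.645, edgeR) and 0.44 ± 0.24 for homozygous against heterozygous (adjusted p = 1, edgeR).

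The surface trefoil gene Tff1 was at 7.56, 1.66 and 10.9 CPM in homozygous libraries and 20.3, 1.19 and 1.59 in heterozygous libraries, against 2.16, 16.4 and 152 in wild-type libraries. Tff2 was at 28.0, 9.26 and 21.7 CPM in homozygous libraries and 54.8, 9.22 and 6.92 in heterozygous libraries, against 6.21, 44.3 and 164 in wild-type libraries. For both genes wild-type replicate 3 was the highest of the 9 libraries and wild-type replicate 1 among the lowest, so the groups overlapped. The log2 fold changes of Tff1 were -3.09 ± 1.52 in homozygous and -2.89 ± 1.5 in heterozygous against wild type, and without wild-type replicate 3 they were -0.46 and -0.28. Those of Tff2 were -1.86 ± 1.10 and -1.59 ± 1.09, and without that library -0.36 and -0.10.

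Wild-type replicate 3 was also the highest library for Gkn1, at 11.3 CPM against at most 4.19 in the others, and for Gkn2, at 7.89 CPM against at most 0.60. It was the lowest for Pgc, at 146 CPM against 336 to 1799 in the others, and for Gkn3, at 1048 CPM against 1719 to 4945. Gkn2 had 2 counts over the homozygous and 3 over the heterozygous libraries, against 69 over the wild type, and was not tested because it failed the filter. The wild type over homozygous count ratio was 36.5 (95% counting interval 9.72 to 307). The share of surface genes among counts of the 10 genes was 25.3% in wild-type replicate 3 and 8.21% to 14% in the other 8 libraries. The surface genes summed to 883 CPM in that library, within the 521 to 1068 of the others. Its gland genes summed to 2610 CPM, against 4634 to 9494 in the others. Muc1 supplied 5581 of the 6940 surface counts of wild-type replicate 3. The 6 goblet markers were also highest there, with a sum of 213 CPM against 22.3 to 65.5 in the others, and their part in these values was not tested.

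**Figure D4:**
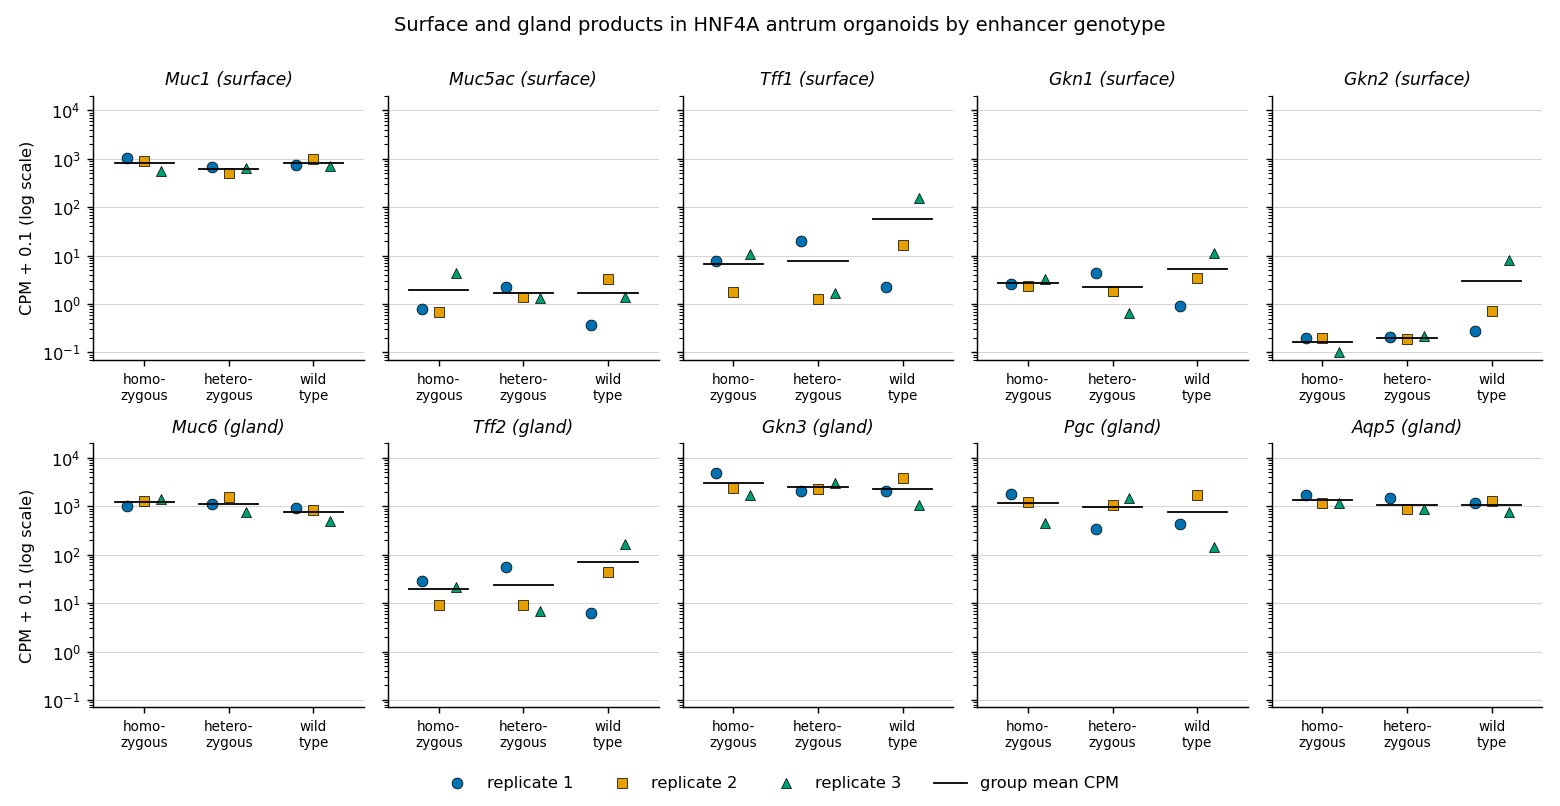
CPM plus 0.1 on a log scale for the 10 genes in homozygous, heterozygous and wild-type antrum organoids; symbols mark the replicate number and horizontal bars the group mean. Wild-type replicate 3 is the highest point for Tff1, Tff2, Gkn1 and Gkn2 and the lowest for Muc6, Gkn3, Pgc and Aqp5.

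EdgeR called none of the 9 tested members in any of the 3 antrum comparisons, where it called 0.0% of the 12593 tested genes in each. None of the 9 reached an unadjusted p under 0.05, which 578 of all tested genes did in homozygous and 1125 in heterozygous against wild type and 33 in homozygous against heterozygous, and neither DESeq2 nor a replicate block called any of the 9. The other log2 fold changes of homozygous against wild type were -0.96 ± 0.91 for Gkn1, which was 0.34 without wild-type replicate 3, and 0.04 to 0.60 for Muc1, Muc5ac, Gkn3, Pgc and Aqp5. Among tested members, groups that did not overlap were found for Muc6 in homozygous and for Muc1 in heterozygous against wild type. This held for 8.9% of tested genes in the homozygous and 14.9% in the heterozygous comparison. Gkn2, which is not among the tested genes, did not overlap in either comparison. Its counts were 1, 1 and 0 in homozygous and 1, 1 and 1 in heterozygous libraries, against 2, 5 and 62 in wild type. The lowest wild-type library thus had only 2 counts. In homozygous against heterozygous all members overlapped, while 1.95% of tested genes did not.

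Fibroblast transcripts stood beside these comparisons. The summed CPM of 12 fibroblast marker genes was 36.2 to 1068 in homozygous and 100.1 to 1265 in heterozygous libraries, against 3.18 to 6.74 in wild-type libraries, while the defining genes Lum and Dcn were at 0.00 and at most 0.60 CPM. Wnt3a divided the libraries likewise, at 95.1 to 2054 CPM in homozygous and 175 to 3099 in heterozygous libraries, against at most 4.33 in wild-type libraries. The 5 epithelial markers summed to 3935 to 6295 CPM in homozygous, 3673 to 6564 in heterozygous and 6242 to 9615 in wild-type libraries. Without the 3 libraries richest in these transcripts (homozygous 3, heterozygous 2 and 3) the homozygous against wild-type values were 0.58 for Muc6 and -3.61 for Tff1. The part of these transcripts in the values was not tested beyond that. The heterozygous values, from 1 library, were then 0.51 for Muc6, -1.47 for Tff1 and -0.37 for Tff2.

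Of the other lists in the antrum organoids no gene was called by edgeR in homozygous or heterozygous against wild type. The 6 tested genes of other mucins, trefoils and mucus proteins had a median log2 fold change of -2.15 in homozygous against wild type, beside 0.00067 over all tested genes. Muc13 was at 3.80 CPM in homozygous and 49.5 in wild-type libraries on average (-3.70 ± 0.91, adjusted p = 0.877, edgeR). The 21 tested glycosylation enzymes had a median of -0.24, with Gcnt3, which branches mucin sugars, at -2.26 ± 0.99, and the 18 genes of folding and secretion a median of 0.08. Among aquaporins Aqp4, the basolateral water channel of gastric gland cells, was at -0.74 ± 0.18 in homozygous and -1.08 ± 0.18 in heterozygous against wild type (adjusted p = 0.877 and 0.457, edgeR). Aqp8, a further water channel gene, stood the other way at low counts, with means of 0.868 CPM in homozygous, 7.43 in heterozygous and 0.145 in wild-type libraries (2.46 ± 1.36 in homozygous and 5.55 ± 1.35 in heterozygous against wild type, adjusted p = 0.999 and 0.457, edgeR). The 5 tested aquaporins had a median of 0.32 in homozygous and 0.33 in heterozygous against wild type. Lyz1 was at 1.58 ± 0.63 and A4gnt at 0.90 ± 0.65 in homozygous against wild type.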

How the data were processed

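The deposited table gives, for every library, a whole-number count per gene symbol. The authors aligned with STAR, per the submitters' processing notes, which name mm10 as the build of the antrum libraries. For the lines they also name hg19, Bowtie2 and Cell Ranger, without a role. How reads were counted, by which strand setting and annotation, and what was done with multiply mapped reads is not stated in the labels. Per the labels' protocols, libraries were made by poly-A selection and sequenced as paired reads of 150 bases. One label field of the lentiviral lines names small intestine; the titles and the tissue tag were followed.

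The 2 experiments were fitted apart, each with all its groups, in edgeR 4.0.16 (R 4.3.3): TMM factors, filterByExpr (minimum count 10, total 15), robust quasi-likelihood F test, two-sided, Benjamini-Hochberg adjustment over 12720 genes (lines) or 12593 (antrum), called under 0.05. SE is the log2 fold change over the square root of F. DESeq2 1.42.0, DESeq2's size factors, no filter, a replicate block and leaving out libraries were alternatives. Ratios with 1 to 3 counts carry a 95% interval, and intervals and floors cover counting error only. Across genes, same-numbered gastric lines correlated in their deviations by 0.337 to 0.751, and homozygous with heterozygous libraries by 0.188 to 0.530, so these are taken as paired by this check and not by the labels; pairs with small intestine (-0.088 to 0.118) and wild type (-0.290 to 0.244) are not. The block was nevertheless fitted by number over all groups of an experiment, small intestine and wild type included. The chi-square per degree of freedom between replicates was 40.8 to 56.5. Transcript lengths were not used here, so levels are not compared between single genes. Shares and sums over genes, and the part of a gene in them, are of counts not corrected for length.

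The 10 members, the 16 lists of 159 symbols (152 in the table) and the alternatives were chosen with earlier results of these data known. Genes named from a list are among the 4 called ones of smallest p, or the 2 of smallest p where none was called; likeness names the 3 nearest genes, except that those of Muc5ac in the lines are not reported here.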

Additional observations from a re-analysis of the deposited data

How the results depend on the processing

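Counts of called genes moved with the test, and the cause was not tested. DESeq2 called 493 genes in CDX2 against GFP lines, 221 in HNF4A against GFP lines, 139 in CDX2 against HNF4A lines, 2675 in small intestine against CDX2 lines, 2791 against HNF4A lines, 180 and 327 in homozygous and heterozygous against wild type and 1 in homozygous against heterozygous, where edgeR called 52, 18, 3, 1437, 1585, 0, 0 and 0. Of the 10 genes DESeq2 called 1 in CDX2 against GFP, 1 in CDX2 against HNF4A lines, 7 in small intestine against CDX2 and 9 against HNF4A lines. In small intestine against GFP lines the calls were 4493 with DESeq2, 4966 with the replicate block and 3448 in the main edgeR fit. These held 7, 6 and 6 of the 10 genes. The replicate block raised the calls to 578, 100 and 28 in the 3 comparisons of gastric lines, 2942 and 3061 in small intestine against CDX2 and HNF4A lines, and 5 and 51 against wild type. It called 2 of the 10 in CDX2 against GFP lines and changed no other call among the gastric lines or the antrum groups for the 10.

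Leaving out each library in turn gave 11 to 107 calls in CDX2 against GFP lines, 4 to 30 in HNF4A against GFP and 0 to 8 in CDX2 against HNF4A lines. It gave 833 to 2689 in small intestine against GFP, 103 to 1401 against CDX2 and 142 to 1423 against HNF4A lines, with 2 to 6, 2 to 4 and 2 to 4 of the 10 called. Signs turned in some of these fits. Tff2 ranged from -1.60 to 0.92 in CDX2 and -1.90 to 0.85 in HNF4A against GFP lines. In HNF4A against GFP lines Muc5ac ranged from -3.64 to 0.73, Tff1 from -0.93 to 3.17, Gkn1 from -0.31 to 2.76 and Gkn2 from -0.63 to 4.30. Gkn1 ranged from -1.48 to 0.34 in homozygous against wild type. DESeq2's size factors, no filter and dropping the 3 fibroblast-rich libraries turned no sign among the fold changes given; without the filter Muc6 in small intestine against CDX2 lines was at an adjusted p of 0.0504 in edgeR. Depth limits Muc5ac, Gkn1 and Gkn2, which had few counts in many libraries.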
